A study of Mus musculus with 12 samples.

Results

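Inguinal white adipose tissue (IWAT), a subcutaneous fat pad of the groin, was compared with retroperitoneal white adipose tissue (RWAT), a fat pad behind the peritoneum beside the kidney. The comparison used the 3 libraries labelled LFD IWAT and the 3 labelled LFD RWAT, 6 of the 12 libraries of the series, and was described across all genes. All 12 came from male wild type C57BL/6J mice of 6 to 10 weeks on a standard low-fat rodent diet, and every tissue had been surgically denervated. No innervated tissue was analysed here, so depot was the only factor, and an effect of denervation cannot be told apart from the state of the depots. The other 6 libraries, of epididymal white fat (EWAT) and brown fat (BAT), entered the fit to share its estimate of spread. Nothing in the labels ties the replicates of a depot to different mice. The p-values thus reflect how these libraries varied, a variation that may be technical.

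White fat stores triglyceride in adipocytes that lie among progenitors, vessels, nerves and immune cells. Subcutaneous and intra-abdominal depots arise from different embryonic territories and keep different sets of developmental transcription factors into adult life. Intra-abdominal fat is covered by mesothelium, the epithelial lining of the body cavities, whereas inguinal fat of the mouse is known for adipocytes that can take on a thermogenic, beige state.

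The level of a gene is given as CPM, the count of a gene scaled to library size with factors from the trimmed mean of M-values (TMM). The log2 fold change is always IWAT minus RWAT, with its standard error (SE), from edgeR's quasi-likelihood test. Levels as mean ± SD are over n = 3 libraries per depot. Library totals of all 12 ran from 15699912 to 25633413 estimated counts, and 19154 genes were tested. At this depth 3 counts, the upper limit that a count of 0 allows, are 0.135 to 0.179 CPM in the 6 libraries, for counting error only.

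The labelled tissue was checked against 6 white adipocyte markers. Adipoq, Plin1, Fabp4, Lep, Cfd and Pparg were present in all 6 libraries, with Lep lowest at 9.53 TPM in RWAT 3. Libraries RWAT 1, RWAT 3 and IWAT 3 stood apart from the others of their depot. RWAT 1 carried far more lipogenic mRNA than RWAT 2 and RWAT 3, and IWAT 3 far less than IWAT 1 and IWAT 2. RWAT 3 held 18284 CPM over 18 skeletal muscle markers, against 101 to 166 CPM in the other RWAT libraries and 67.3 to 75.0 CPM in IWAT. The first principal component of the 6 libraries, with 57.7% of the variance, did not separate the depots. In bulk tissue, fewer cells of a type and less RNA per cell cannot be told apart.

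**Figure D1:**
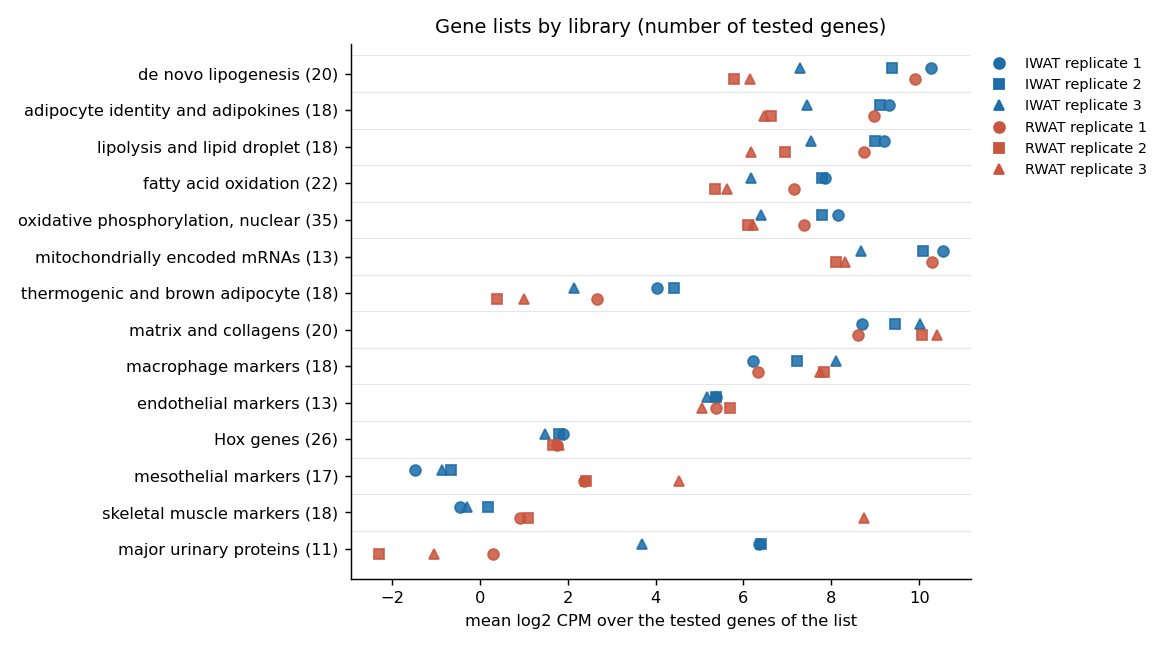
Mean log2 CPM over the tested genes of each list (horizontal axis), 1 point per library, with IWAT in blue, RWAT in red and the replicate shown by the symbol. Major urinary proteins and mesothelial markers separate the depots, skeletal muscle markers stand out in RWAT 3 at 8.74, and the lipogenic mean of RWAT 1 (9.91) lies between those of IWAT 1 (10.26) and IWAT 2 (9.37).

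No gene passed an adjusted p of 0.05 between IWAT and RWAT by edgeR's quasi-likelihood test (0% of 19154), and the smallest adjusted p was 0.108. At an unadjusted p under 0.05 there were 847 genes (4.42%), of which 301 were higher in IWAT (1.57%) and 546 lower (2.85%). All 3 IWAT libraries lay above all 3 RWAT libraries for 519 genes (2.71%) and below them for 760 (3.97%), 6.68% together. Without IWAT 3, edgeR called 3 genes (0.0146%): Mup1 and, named after their values were seen, Mup-ps17 and Gm10039. DESeq2 on the same counts called 175 genes (0.914%), 43 higher in IWAT (0.224%) and 132 lower (0.689%), and limma-voom called 0, with 695 at an unadjusted p under 0.05. Of the 175, 15 were mesothelial markers, 15 were muscle markers and 10 were major urinary protein genes. The DESeq2 count depended on single libraries. With 20525 to 20689 genes tested, it was 101 without IWAT 1, 94 without IWAT 2, 220 without IWAT 3, 1034 without RWAT 1, 201 without RWAT 2 and 59 without RWAT 3. Without RWAT 3, no muscle marker, 10 mesothelial markers and 10 major urinary protein genes were called, and 45 of the 59 genes were also among the 175. Since no gene passed the edgeR test, the values that follow describe these libraries, and DESeq2 calls are named as such.

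**Figure D2:**
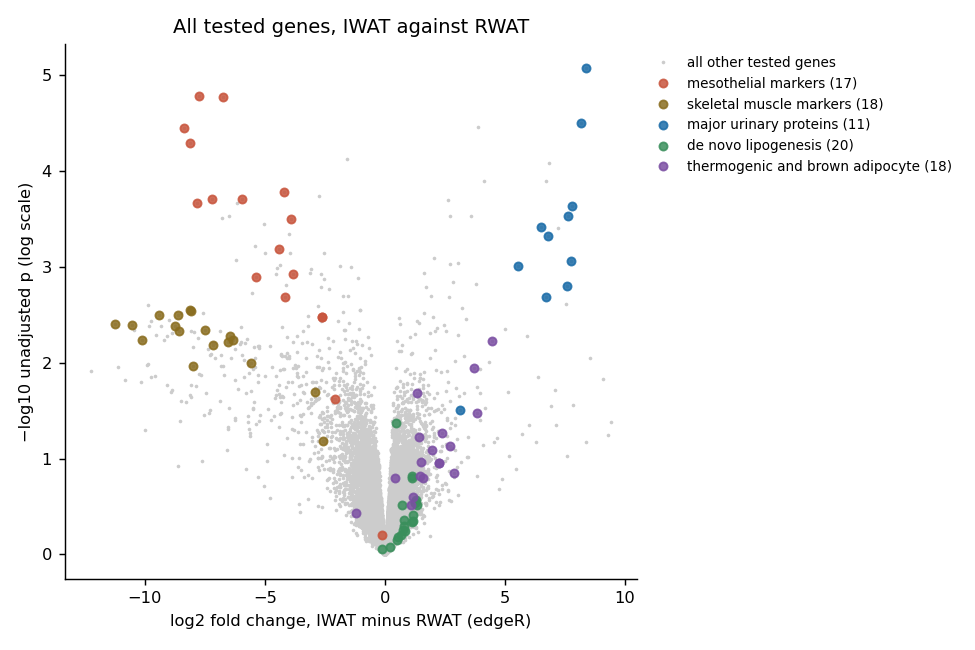
Log2 fold change of each of the 19154 tested genes, IWAT minus RWAT (horizontal axis), against −log10 of the unadjusted edgeR p (vertical axis), with 5 gene lists in colour. Mesothelial and muscle markers lie to the left and major urinary protein genes to the right, while 19 of the 20 lipogenic genes lie between 0 and 1.34.

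Major urinary protein genes had the highest IWAT levels relative to RWAT. They encode small secreted lipocalins that carry pheromones in mouse urine and are made in large amounts by liver. The letters around the start of 3 of them are shown for how alike the gene copies are. Each stretch ends at the TATA-box-like letters TATATAA, in capitals, and is read from the RefSeq promoter windows of build GRCm38.p6, 5′ to 3′ on the minus strand of chromosome 4:

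Mup10 (chr4:60582179-60582275): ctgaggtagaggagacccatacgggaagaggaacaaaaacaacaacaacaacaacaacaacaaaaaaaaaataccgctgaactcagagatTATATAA

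Mup14 (chr4:61303980-61304076): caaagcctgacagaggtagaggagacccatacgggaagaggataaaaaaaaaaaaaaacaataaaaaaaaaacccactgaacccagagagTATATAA

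Mup9 (chr4:60421977-60422073): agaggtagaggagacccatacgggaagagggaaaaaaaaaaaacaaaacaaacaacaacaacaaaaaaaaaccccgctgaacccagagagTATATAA

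TATATAA ends before the RefSeq start site of Mup10 and Mup9 but 18 bases past that of Mup14, and the last 21 bases shown for Mup10 and Mup14 lie inside the GENCODE gene. Of the 23 bases before TATATAA, where the stretches were aligned, Mup14 and Mup9 shared 21, Mup10 and Mup9 shared 19, and Mup10 and Mup14 shared 18, compared position by position. TATATAA, the only motif searched here, was found on the transcript strand, as printed above, in 2.20% of 32851 windows of 300 bases. On either strand it was found in 3.24%. Mup1 is named only.

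Mup10 (chromosome 4, 60578260 to 60582199) stood at 1875, 1552 and 441 CPM in IWAT 1, 2 and 3, and at 35.7, 1.35 and 6.25 CPM in RWAT 1, 2 and 3. The groups did not overlap, and the lowest IWAT library was still above the highest RWAT library, RWAT 1. The log2 fold change was 6.48 (SE 1.27), with an edgeR adjusted p of 0.27 and a DESeq2 adjusted p of 8.45e-07. Mup14 stood at 687, 721 and 111 CPM in IWAT and at 1.55, 0.135 and 3.64 CPM in RWAT. This gave a log2 fold change of 8.16 (SE 1.18; edgeR adjusted p 0.115). IWAT 3 was the lowest IWAT library for each of these genes.

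Mup9 was at 782, 716 and 129 CPM in IWAT and at 7.32, 0.18 and 0.816 CPM in RWAT, a log2 fold change of 7.63 (SE 1.44). Mup1 was at 33.2, 106 and 8.46 CPM in IWAT and at 0.238, 0.135 and 0.0544 CPM in RWAT. Its log2 fold change of 8.39 (SE 1.05) had the smallest p of all genes tested, at an edgeR adjusted p of 0.108. Of 21 Mup genes, 11 passed the filter on low counts. All 11 were higher at an unadjusted p under 0.05, beside 1.57% of all genes tested, and 10 lay above without overlap, beside 2.71%. Their median log2 was 7.57, against −0.02 over all genes tested. The filter passes genes by their counts in any depot, so these counts and this median are partly fixed by it. In RWAT 10 to 15 of the 21 members were at 0, and BAT held 326 to 561 CPM over the list. The 11 thus passed largely through IWAT and BAT libraries, where they are high. The genes cannot be read as independent: of the 75-base words in their transcripts, 57.8% for Mup1, 74.3% for Mup10, 75.1% for Mup9 and 79.4% for Mup14 also occur in another gene, so that the estimation could divide reads among them. Summed over the list, IWAT held 3828, 3428 and 760 CPM and RWAT held 52.1, 2.2 and 12.7 CPM.

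Mesothelial markers other than Cldn15 and Aldh1a2 were lower in every IWAT library than in any RWAT library. The 100 bases before the RefSeq start site of 2 of them and of Shox2, a subcutaneous developmental gene described further on, are shown for how differently CG-rich these starts are. CG dinucleotides are in capitals, the build is GRCm38.p6, and the letters run 5′ to 3′ on the strand of the gene, minus for Bnc1 and Shox2 and plus for Upk3b:

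Bnc1 (chr7:81992300-81992399): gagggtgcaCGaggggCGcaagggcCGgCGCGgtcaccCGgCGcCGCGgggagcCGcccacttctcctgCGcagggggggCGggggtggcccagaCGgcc

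Upk3b (chr5:136038396-136038495): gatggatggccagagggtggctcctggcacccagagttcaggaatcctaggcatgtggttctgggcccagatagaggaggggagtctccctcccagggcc

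Shox2 (chr3:66981772-66981871): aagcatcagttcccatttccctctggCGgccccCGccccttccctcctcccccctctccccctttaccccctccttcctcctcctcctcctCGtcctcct

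The full window of 300 bases held 50 CG for Bnc1, 11 for Shox2 and 2 for Upk3b, beside a median of 7 over all windows, and 99.1% of windows held fewer than that of Bnc1. Wt1 and Tbx15 are named only.

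Wt1 (chromosome 2, 105126529 to 105173616) encodes a zinc-finger transcription factor of mesothelium and of visceral fat progenitors. It stood at 0, 0.0554 and 0.157 CPM in IWAT, each at or under the level of 3 counts, and at 4.05, 10.99 and 34.7 CPM in RWAT. The pooled RWAT level was 237 times that of IWAT, with a counting interval of 92.4 to 873. The edgeR log2 fold change was −7.76 (SE 1.04), with an adjusted p of 0.108 by edgeR and 4.72e-10 by DESeq2. An antisense transcript overlaps this gene, and whether the counting used strand is not given in the sources used here, so its reads may include antisense ones.

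Bnc1, a zinc-finger factor of epithelia and mesothelium, stood at 0, 0.0554 and 0.104 CPM in IWAT and at 3.33, 2.84 and 12.6 CPM in RWAT. For Bnc1 the log2 fold change was −6.72 (SE 0.91; edgeR adjusted p 0.108). Upk3b, an uroplakin and surface marker of mesothelial cells, stood at 0, 0.111 and 0.104 CPM in IWAT and at 15.4, 10.1 and 38.7 CPM in RWAT. Neither gene overlapped between the depots, and RWAT 3 was the highest library for both. Muc16, a large surface mucin, stood at 0.0996, 0.498 and 0 CPM in IWAT and at 28.0, 20.4 and 87.1 CPM in RWAT.

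Msln, mesothelin, averaged 0.339 ± 0.211 CPM in IWAT and 21.2 ± 23.4 CPM in RWAT (SD, n = 3). Krt19, a keratin of simple epithelia, averaged 0.746 ± 0.355 CPM in IWAT and 13.7 ± 14.0 CPM in RWAT. Of the 17 markers, all tested, 15 had every IWAT library below every RWAT library, beside 3.97% of all genes tested, and 16 were lower at an unadjusted p under 0.05, beside 2.85%. The exceptions to the first count were Aldh1a2 and Cldn15, the latter at 25.1, 17.4 and 19.7 CPM in IWAT and 27.9, 25.3 and 15.3 CPM in RWAT. The median log2 was −4.39, and −3.18 without RWAT 3, the library highest in muscle and in mesothelial markers. DESeq2 called 15 of the markers lower, beside 0.689% of all genes tested. It called 10 to 16 of them when single IWAT or RWAT libraries were left out. The summed markers stood at 27.7 to 32.4 CPM in IWAT, most of it Cldn15, and at 132, 125 and 483 CPM in RWAT.

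Epididymal fat, measured in the same fit, held Wt1 at 29.8 ± 9.1 CPM and Upk3b at 31.2 ± 19.2 CPM (SD, n = 3). The log2 fold change of Wt1 was −8.60 for IWAT minus EWAT (edgeR adjusted p 0.0115) and 0.85 for EWAT minus RWAT (adjusted p 0.79). These comparisons share libraries with the main one, so their values stand side by side only. The same test called 66 genes between IWAT and EWAT (0.345%), 38 higher (0.198%) and 28 lower (0.146%) in IWAT. Between EWAT and RWAT it called 8 (0.0418%), 4 in each direction (0.0209%).

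**Figure D3:**
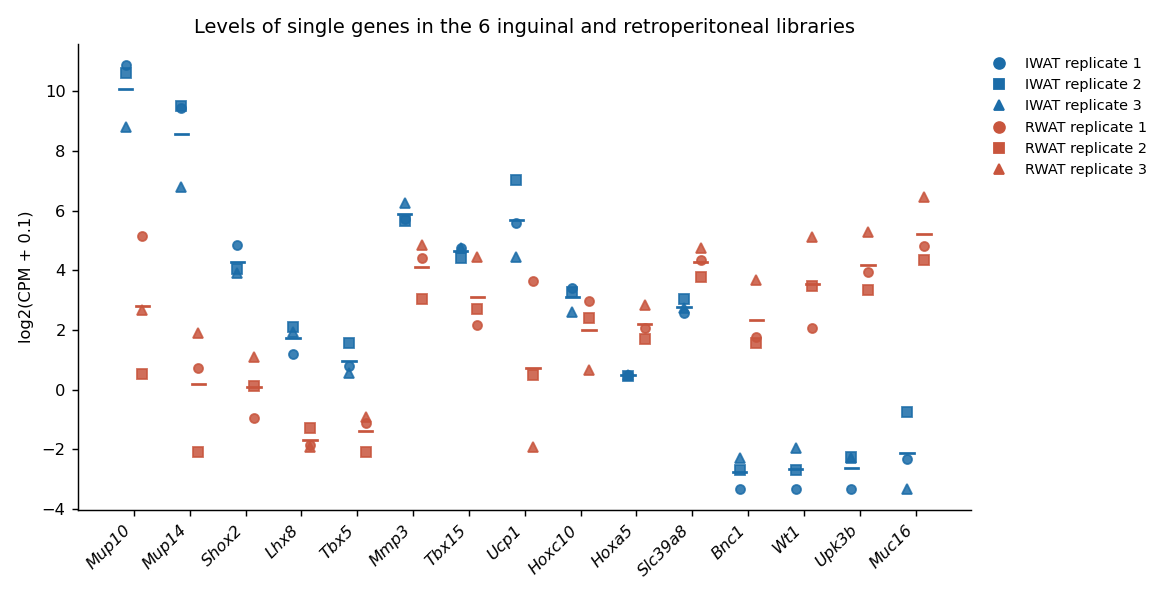
Log2 of CPM plus 0.1 (vertical axis) of 15 genes in each of the 3 IWAT (blue) and 3 RWAT (red) libraries, with a bar at the mean of each depot. The libraries of the depots do not overlap for 13 of the 15 genes, beside 6.68% of all genes tested, while Tbx15 and Hoxc10 overlap. The 15 were picked for display, some by a rule that asks for no overlap and Tbx5 and Lhx8 after their values were seen. Their count is thus no result about the depots.

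Developmental transcription factors of subcutaneous fat differed gene by gene. Shox2 (chromosome 3, 66971727 to 66981771), a homeodomain factor, stood at 28.4, 16.3 and 15.1 CPM in IWAT and at 0.417, 0.991 and 2.01 CPM in RWAT. The depots did not overlap, and the log2 fold change was 4.12 (SE 0.70), with an adjusted p of 0.224 by edgeR and 1.96e-07 by DESeq2. DESeq2 also called Shox2 when any 1 of the 6 libraries was left out, with adjusted p from 3.26e-08 to 0.000375. Tbx15, a T-box factor of subcutaneous preadipocytes, stood at 27.0, 21.1 and 26.9 CPM in IWAT and at 4.35, 6.40 and 21.9 CPM in RWAT. It overlapped because RWAT 3, the muscle-rich library, lay above IWAT 2. Without RWAT 3 the DESeq2 adjusted p of Tbx15 was 1.05e-06, and with it 0.782. By edgeR the adjusted p without RWAT 3 was 0.771. DESeq2 did not call Tbx15 when any other IWAT or RWAT library was left out, at a lowest adjusted p of 0.365 (without IWAT 3). The part of muscle in this was not tested.

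In EWAT, Tbx15 averaged 0.0747 ± 0.0877 CPM, below every library of both other white depots. Hoxc10, a posterior Hox gene, averaged 8.72 ± 2.44 CPM in IWAT and 4.82 ± 3.18 CPM in RWAT, and En1, a homeodomain factor of the dermomyotome, 2.87 ± 0.52 and 3.75 ± 1.48 CPM; both overlapped. Pax3, a factor of muscle and dermal precursors, was lower in IWAT at 0.0996, 0 and 0.157 CPM against 0.595, 2.57 and 1.14 CPM in RWAT. Of 14 subcutaneous developmental genes, 1 lay above without overlap (Shox2) and 2 below (Pax3 and Hoxd8), beside 2.71% above and 3.97% below over all genes tested, with a median log2 of 0.21.

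Of 18 visceral developmental genes 15 were tested, and 5 lay below without overlap (Wt1, Bnc1, Gata4, Gata5 and Hoxa5), beside 3.97% of all genes tested. The median log2 of the 15 was −0.73, and −0.12 without RWAT 3. Wt1 and Bnc1 are also mesothelial markers. Tbx5, a T-box factor of forelimb and heart counted in this list, went the other way, at 1.64, 2.82 and 1.36 CPM in IWAT and 0.357, 0.135 and 0.435 CPM in RWAT. The log2 fold change of Tbx5 was 2.64 (SE 0.48; edgeR adjusted p 0.233). Lhx8, a LIM-homeodomain factor known as a marker of brown adipocytes, stood at 2.19, 4.15 and 3.71 CPM in IWAT and at 0.179, 0.315 and 0.163 CPM in RWAT. For Lhx8 it was 3.87 (SE 0.57; edgeR adjusted p 0.115). Tbx5 and Lhx8 were chosen for description after their values were seen.

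Hox genes set position along the body axis and are ordered in 4 clusters. Of 39 members 26 were tested, and 5 lay below without overlap in IWAT: Hoxa2, Hoxa3, Hoxa5, Hoxa6 and Hoxd8, beside 3.97% of all genes tested. None lay above, beside 2.71%. Hoxa5 stood at 1.295, 1.274 and 1.306 CPM in IWAT and at 4.11, 3.11 and 7.12 CPM in RWAT. The log2 fold change of Hoxa5 was −1.88 (SE 0.42), with an adjusted p of 0.436 by edgeR and 0.00725 by DESeq2, and DESeq2 lost it without IWAT 1, IWAT 2 or RWAT 3 (adjusted p 0.103, 0.113 and 0.338). Hoxa2 averaged 0.871 ± 0.0655 CPM in IWAT and 1.77 ± 0.289 CPM in RWAT. The median log2 of the 26 was −0.05, and it was 0.12 without IWAT 3 and 0.21 without RWAT 3. Hox genes of a cluster overlap one another and antisense transcripts, so reads may be divided among them.

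**Figure D4:**
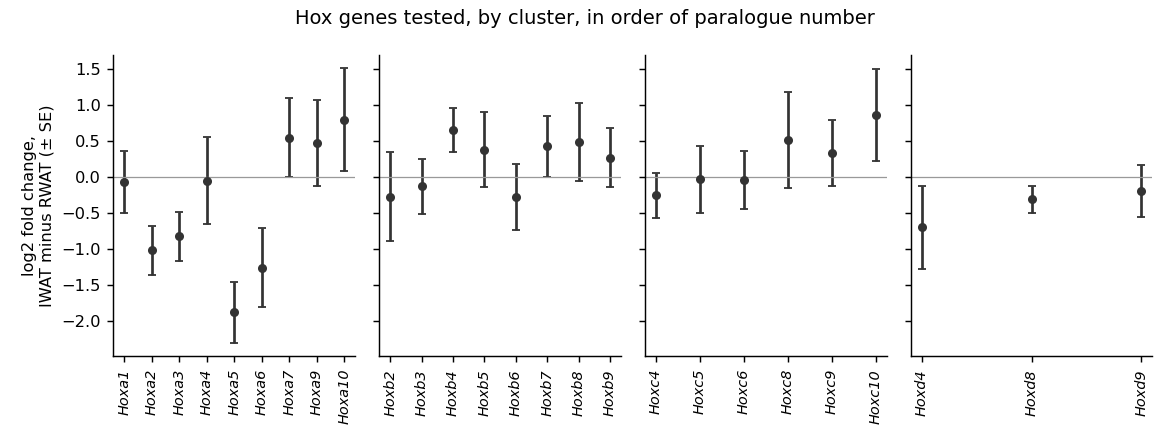
Log2 fold change, IWAT minus RWAT, with its SE (vertical axis) for the 26 tested Hox genes in 4 panels by cluster, in order of paralogue number. Hoxa2, Hoxa3, Hoxa5 and Hoxa6 lie below 0 by more than 1 SE, from −0.82 to −1.88, while Hoxc10 lies above at 0.86.

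Thermogenic genes mostly stood at higher levels in IWAT, but most of them overlapped between depots. Ucp1, the mitochondrial uncoupling protein of brown and beige adipocytes, stood at 47.6, 130 and 21.5 CPM in IWAT and at 12.4, 1.31 and 0.163 CPM in RWAT. Although the depots did not overlap, the log2 fold change of 3.85 (SE 1.57) had an adjusted p of 0.871 by edgeR and 0.304 by DESeq2. Without RWAT 1 the log2 fold change of Ucp1 was 6.45 by edgeR (adjusted p 0.211) and 6.51 by DESeq2 (adjusted p 0.000233). When any other IWAT or RWAT library was left out, DESeq2 did not call Ucp1, at a lowest adjusted p of 0.262 (without IWAT 3). Dio2, the deiodinase that activates thyroid hormone, stood at 5.58, 24.5 and 7.68 CPM in IWAT and at 2.68, 0.586 and 4.02 CPM in RWAT. Cidea, a lipid droplet protein of brown fat, overlapped, with IWAT 3 at 11.1 CPM below RWAT 1 at 30.4 CPM. Of 18 tested thermogenic genes, 17 had a positive log2, with a median of 1.76, and 4 lay above without overlap (Ucp1, Dio2, Slc27a2 and Cpn2), beside 2.71% of all genes tested. The median was 3.08 without RWAT 1, and DESeq2 then called 10 of these genes higher, beside 729 of all 20689 genes tested. With all libraries it called 1 of them higher, beside 43 of all 19154. When any other IWAT or RWAT library was left out, it called 0 to 2 of them higher.

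The lipogenic programme overlapped between the depots throughout. Fasn, fatty acid synthase, stood at 31711, 15224 and 2028 CPM in IWAT and at 20804, 250 and 550 CPM in RWAT. Scd1, the stearoyl-CoA desaturase, stood at 49554, 28484 and 6734 CPM in IWAT and at 52864, 3198 and 1921 CPM in RWAT. RWAT 1 thus lay between IWAT 1 and IWAT 2 for Fasn and just above IWAT 1 for Scd1. The other RWAT libraries were far lower for both genes. Of 20 lipogenic genes none lay apart in either direction, 19 had a positive log2 and the median was 0.82, but it was 3.80 without RWAT 1. Fasn then had a log2 fold change of 5.36 by edgeR (adjusted p 0.191) and 5.40 by DESeq2 (adjusted p 1.87e-05). DESeq2 did not call Fasn when any other IWAT or RWAT library was left out, at a lowest adjusted p of 0.487 (without IWAT 3). Medians of the other adipocyte lists were 0.93 for lipolysis, 1.02 for adipocyte identity, 1.18 for fatty acid oxidation and 0.95 for nuclear oxidative phosphorylation genes, with no member apart in any of these. Without RWAT 1 they were 2.30, 2.77, 2.04 and 1.47 in the same order.

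Lep, the satiety hormone leptin, stood at 713, 222 and 52.2 CPM in IWAT and at 705, 68.5 and 19.8 CPM in RWAT. Its log2 fold change of 0.32 (SE 1.19) turned to −0.95 without IWAT 1. Adrb3, the adipocyte β3-adrenergic receptor, averaged 131 ± 82.1 CPM in IWAT and 86.6 ± 126 CPM in RWAT (SD, n = 3), and Adipoq, the adipokine adiponectin, 1432 ± 783 and 701 ± 752 CPM. For each of these 3 genes the SD within each depot exceeded the difference between the depot means. Much of the RWAT spread was RWAT 1. Without it DESeq2 gave a log2 fold change of 3.29 for Adrb3 (adjusted p 0.000492), 2.46 for Adipoq (0.00136) and 2.94 for Lep (0.0424). There edgeR's adjusted p was 0.191, 0.191 and 0.317. DESeq2 called none of the 3 genes when any other IWAT or RWAT library was left out. The lowest DESeq2 adjusted p was then 0.326, for Adipoq without IWAT 3.

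Beyond these lists, the genes with the smallest unadjusted p at moderate levels and without overlap were as follows. Mmp3, the matrix protease stromelysin-1, stood at 52.5, 50.7 and 76.5 CPM in IWAT and at 21.4, 8.20 and 28.4 CPM in RWAT, a log2 fold change of 1.63 (SE 0.37; edgeR adjusted p 0.45). Irf4, a transcription factor of immune cells that also acts in adipocytes, averaged 31.7 ± 13.5 CPM in IWAT and 7.81 ± 4.28 CPM in RWAT. Lyz1, a lysozyme, averaged 27.6 ± 14.8 and 8.42 ± 2.81 CPM. DESeq2 gave an adjusted p of 0.00652 for Mmp3, 0.00225 for Irf4 and 0.00815 for Lyz1. It lost Mmp3 without IWAT 3 (0.0755), Irf4 without IWAT 2 (0.107) or RWAT 3 (0.0778), and Lyz1 without IWAT 3 (0.101) or RWAT 2 (0.0938).

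Hcar2, the receptor for niacin and β-hydroxybutyrate, averaged 30.8 ± 17.9 CPM in IWAT and 8.12 ± 3.31 CPM in RWAT, and Cyp2f2, a cytochrome P450, 45.5 ± 14.0 and 4.92 ± 3.78 CPM. DESeq2 did not call Hcar2 without IWAT 1, IWAT 2, RWAT 2 or RWAT 3 (adjusted p 0.129, 0.386, 0.140 and 0.241). Nor did DESeq2 call Cyp2f2 without IWAT 1 or IWAT 2 (adjusted p 0.112 and 0.0882). In the other direction, Slc39a8, a zinc and manganese importer, stood at 5.78, 8.03 and 6.53 CPM in IWAT and at 20.2, 13.6 and 27.0 CPM in RWAT. Its log2 fold change of −1.58 (SE 0.25) had an adjusted p of 0.176 by edgeR and 3.64e-06 by DESeq2, and DESeq2 called it without any 1 of the 6 libraries. Pkhd1l1, a large membrane protein, averaged 2.00 ± 0.683 CPM in IWAT and 65.2 ± 57.0 CPM in RWAT.

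Col6a5, a collagen VI chain, averaged 5.80 ± 3.95 CPM in IWAT and 40.2 ± 29.9 CPM in RWAT. Smaller differences with tight IWAT values were those of Meis1, a homeodomain cofactor of Hox proteins, at 11.7 ± 1.39 and 24.3 ± 5.68 CPM, and of Kalrn, at 10.1 ± 1.18 and 21.9 ± 7.73 CPM. Abcb1b, an efflux transporter, averaged 18.9 ± 0.791 and 38.8 ± 15.4 CPM. DESeq2 called these 4 genes at adjusted p from 0.00898 to 0.0491, and lost each of them without RWAT 3, IWAT 1 or IWAT 2. Abcb1b and Meis1 were lost without IWAT 3 or RWAT 2 as well.

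Skeletal muscle markers were lower in IWAT mainly through RWAT 3. Ttn, the giant sarcomere protein titin, stood at 8.52, 10.97 and 6.95 CPM in IWAT and at 19.5, 50.3 and 7339 CPM in RWAT. Acta1, skeletal muscle actin, stood at 2.29, 3.32 and 0.94 CPM in IWAT and at 12.6, 6.31 and 1766 CPM in RWAT. All 18 muscle markers had a negative log2, with a median of −8.03, but the median was −1.40 without RWAT 3. Of the 18, 10 lay below without overlap, beside 3.97% of all genes tested. The kidney marker list summed to 1.79 to 4.28 CPM in IWAT and to 8.52 to 31.3 CPM in RWAT, with 3 to 7 of its 12 genes at 0 in each library. The same list summed to 74.2, 18.5 and 12.8 CPM in EWAT. Most of the RWAT value was Lrp2, the endocytic receptor megalin, at 6.37, 6.40 and 27.6 CPM. Macrophage markers (18) and endothelial markers (13) overlapped, except for 1 endothelial gene that lay above in IWAT, beside 2.71% of all genes tested.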

How the data were processed

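RNA-seq was done on 12 libraries of ribosome-depleted total RNA, sequenced from 1 end over 75 bases, per the labels' protocols. The authors' tools were Trimmomatic 0.36, RSEM 1.3.0 and DESeq2 1.10.1, and their build GRCm38.p4, per the submitters' processing notes. The annotation used and any strand setting: not given in the sources used here. Each deposited table lists RSEM expected counts, the authors' TPM and a posterior SD per gene (unit signal, as deposited by the authors and unused in tests).

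Expected counts were rounded to whole numbers, filtered with filterByExpr and scaled by TMM. edgeR 4.0.16 (R 4.3.3) fitted all 12 libraries with 1 coefficient per depot, and p-values were adjusted by Benjamini-Hochberg over all 19154 genes; limma 3.58.1 and DESeq2 1.42.0 were alternatives. SE is the log2 fold change divided by the square root of F. Symbols come from the deposited gene identifiers, and coordinates and gene types from GENCODE M21, which matched 47310 of 47729 identifiers. TPM served only the tissue check. Scripts were tested on simulated data. No 2 libraries of a depot agreed within sampling noise.

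Genes named are a core set, the 8 per direction with the smallest p among genes without overlap at a mean log2 CPM of at least 3, the 6 per direction with the largest DESeq2 changes, and leading list members. Members and lists were chosen with earlier results of these data known.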

Additional observations from a re-analysis of the deposited data

How the results depend on the processing

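For IWAT against RWAT the number of genes called was 0 by edgeR and stayed 0 with RLE factors, no scaling factors, scaling without muscle and mitochondrial genes, either other filter, 6 or 9 libraries, limma-voom, and the replicate block. DESeq2 called 175, and 3 were called without IWAT replicate 3 by edgeR (range 0 to 3 when single libraries were left out; DESeq2, chosen after seeing the data, 59 to 1034: 101, 94 and 220 without IWAT 1, 2 and 3, and 1034, 201 and 59 without RWAT 1, 2 and 3). limma-voom with sample quality weights, also chosen after seeing the data, called 4013 while giving IWAT 2 a weight of 11.4; it called 8702 for IWAT against EWAT and 18 for EWAT against RWAT. IWAT against EWAT gave 66 genes by edgeR, 1128 by DESeq2, 25 by limma-voom, 27 with the 9 white fat libraries and 7 to 1097 without single libraries. EWAT against RWAT gave 8 by edgeR, 546 by DESeq2 and 0 to 804 without single libraries, 0 without EWAT replicate 2 and 804 without EWAT replicate 1.

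The labels do not say whether replicate numbers pair the samples. Deviations of same-numbered IWAT and RWAT libraries correlated at 0.63, −0.17 and 0.33, and those of different-numbered ones at −0.63 to 0.48. Deviations from a mean of 3 libraries depend on one another, so these values cannot decide on pairing. With the replicate block, IWAT against RWAT called 0 genes, with 12 or 6 libraries (on 6, the nerve growth median was 0.48 and the muscle marker median −4.80), and IWAT against EWAT called 123. Among single genes, Lep ranged from −0.95 (without IWAT replicate 1) to 2.90 (without RWAT replicate 1), with −0.14 and −0.23 without RWAT replicates 2 and 3. Scd1 ranged from −0.13 (without IWAT replicate 1) to 3.47 (without RWAT replicate 1). Lyz2 ranged from −0.93 (without IWAT replicate 3) to 0.10 (without IWAT replicate 1), with 0.000207 without RWAT replicate 3. Cldn15 ranged from −0.36 (without RWAT replicate 3) to 0.031 (without RWAT replicate 1). The causes were not tested. Without scaling factors the median log2 of all genes was −0.23, against −0.02. Levels under 3 counts, as for mesothelial markers in IWAT, are not resolved at this depth, so their fold changes depend on edgeR's prior count.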

Other observations

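Lymphocyte markers had mostly positive log2 fold changes, and most overlapped between depots. Of 12 tested B cell markers 11 had a positive log2, with a median of 0.66, and 3 lay above without overlap (Cxcr5, Ms4a1 and Pax5), beside 2.71% of all genes tested. The B cell median was 0.12 without IWAT 1 and 0.20 by limma-voom with quality weights. Of 13 T cell markers 11 were positive, with a median of 0.38, and 3 lay above without overlap (Cd3g, Cd2 and Cd3d), and the median was −0.04 with quality weights. Lymph node stroma markers summed to 160 CPM in IWAT 1 and to 20.1 to 30.2 CPM in the other 5 libraries, and IWAT 1 also held the highest summed B cell markers, 183 CPM, with RWAT 1 next at 160 CPM.

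Genes of nerve growth and guidance, of interest in denervated fat, had a median log2 of 0.08 over 16 tested genes, and 0.48 without RWAT 3. Ntf5, a neurotrophin, was at 0 in all 3 IWAT libraries and at 0.0595, 0.27 and 0.924 CPM in RWAT, with RWAT 1 under the level of 3 counts. With 3 counts over the group taken for IWAT, the RWAT level was 7.98 times that of IWAT. It was 3.43 times without RWAT 3, which held most of its counts. Both ratios leave out the counting error of RWAT, which held 24 counts, and 7 without RWAT 3. Ncam1, an adhesion molecule of nerve and muscle, stood at 2.24, 7.64 and 17.5 CPM in IWAT and at 2.38, 39.9 and 82.5 CPM in RWAT, and overlapped. Ntn1, an axon guidance cue, averaged 35.1 ± 12.4 CPM in IWAT and 18.8 ± 6.53 CPM in RWAT (SD, n = 3). Of 12 Schwann cell markers 11 had a positive log2, with a median of 0.44, and 2 lay above without overlap, beside 2.71% of all genes tested. That median was 0.97 with quality weights.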
